A study of Homo sapiens with 6 samples.

Results

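The enzymes described here make the amino acid serine and pass its carbon on to folate. They were chosen by gene symbol from a table of 58735 genes: 9 of 9 symbols matched 1 row each, and all 9 had enough reads to be tested. RNA came from T47D, a much used human line of luminal breast cancer that is positive for the estrogen and progesterone receptors. The titles code 3 libraries CK, named as control in the series' design text, and 3 libraries CQ, named there only as an experimental treatment. The series title and an extraction protocol worded alike for every sample name PM2.5, the fine particles of polluted air, and the protocol a time of 48 h, so "exposed" below means the CQ libraries and rests on that inference. No dose, vehicle or genetic change is named for either group in the sources used here. The replicates are called biological, with no word on whether they were separate cultures, so p-values measure the spread between these libraries.

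Libraries held 30970218 to 36878525 counts, and the genome of mitochondria took 8.97% to 9.71% of them in every library of both groups. CYP1A1, a cytochrome P450 induced by aromatic pollutants, stood at 1.58 ± 0.329 CPM in control and 2122 ± 95.9 CPM in exposed libraries (CPM, counts scaled to a common library size by the TMM method; mean ± SD, n = 3 per group). All 9 luminal epithelial markers checked were detected, at a summed 19210 to 21080 CPM in control and 8122 to 10140 CPM in exposed libraries. Most of that sum is KRT8, KRT19 and KRT18, at 8154, 7504 and 1846 CPM in control, which fell together with ESR1, PGR and FOXA1, while GATA3, EPCAM and CDH1 were at 0.04, 0.02 and 0.08 on the log2 scale and did not pass. Sums for other cell types were far smaller: 61.4 to 69.9 against 71.9 to 75.6 CPM for 6 fibroblast genes, 4.35 to 5.15 against 5.30 to 5.85 CPM for 5 basal epithelial genes, and 0.878 to 1.69 against 1.20 to 1.62 CPM for 5 immune genes. Nearly all of the fibroblast sum is COL1A1, at 61.6 CPM in control and 69.8 CPM in exposed libraries, which did not pass. COL1A2 passed, at 0.598 and 1.17 CPM. The 4 endothelial genes summed to at most 0.412 CPM, with KDR at 0 in every library. Fewer cells of a type and less RNA per cell cannot be told apart in such bulk RNA, and the part of the 6 lower luminal markers in the results below was not tested.

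Serine is made from a glycolytic intermediate in 3 steps. PHGDH oxidises 3-phosphoglycerate, PSAT1 transfers an amino group to the product, and PSPH removes the phosphate. Serine hydroxymethyltransferases then move a carbon from serine to tetrahydrofolate and leave glycine, SHMT2 in mitochondria and SHMT1 in the cytosol. In mitochondria MTHFD2 and its relative MTHFD2L oxidise the folate-bound carbon and MTHFD1L releases it as formate, while in the cytosol MTHFD1 carries out these interconversions in a single protein. The carbon serves the synthesis of purines and thymidylate and the remethylation of homocysteine. In breast cancer the pathway is best known for high PHGDH in tumours that lack the estrogen receptor, and in many cell types its genes are targets of the stress factor ATF4.

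After exposure the pathway did not move as a block. PHGDH and PSAT1 and the mitochondrial enzymes SHMT2, MTHFD2 and MTHFD1L rose, by 1.38-fold to 1.80-fold, whereas PSPH, the mitochondrial MTHFD2L and the cytosolic MTHFD1 fell, and SHMT1 did not pass the test. With edgeR's quasi-likelihood F test, adjusted by Benjamini-Hochberg over all 17337 tested genes (threshold 0.05), 5 of the 9 rose and 3 fell. Over all tested genes 43.9% passed, 21.8% higher and 22.1% lower, and of 9342 genes averaging 10 CPM or more 55.2% passed. The median log2 fold change was 0.46 over the 9 enzymes and -0.02 over all tested genes. A test against a minimum change of 1.5-fold left 1 call, that of MTHFD2 (edgeR glmTreat, adjusted p = 0.0019), and over all tested genes it left 8.64%, 4.12% higher and 4.52% lower.

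**Figure D1:**
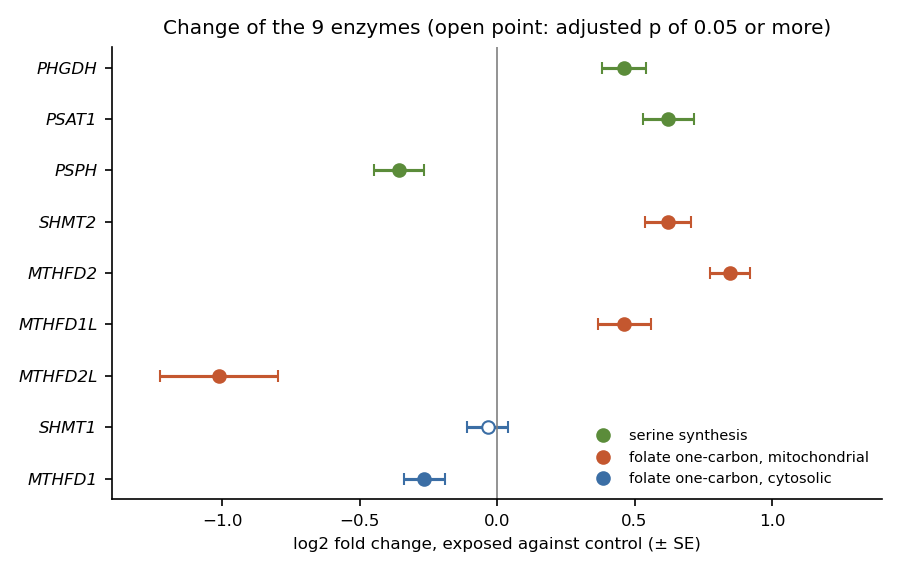
Log2 fold change of each enzyme, exposed against control, on the horizontal axis, with its SE as the bar; colours give the branch and an open point marks an enzyme that did not pass. PHGDH, PSAT1, SHMT2, MTHFD2 and MTHFD1L lie to the right of 0, PSPH, MTHFD2L and MTHFD1 to the left, and SHMT1 at -0.03.

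PHGDH (ENSG00000092621, chromosome 1, 119648411 to 119744226, plus strand) is the entry enzyme of serine synthesis. Its level in control replicates 1 to 3 was 279.7, 327 and 280.1 CPM. In exposed replicates 1 to 3 it was 432, 421 and 367 CPM. The lowest exposed library was above the highest control library. The log2 fold change was 0.46 ± 0.08 (SE), a 1.38-fold rise, with an edgeR adjusted p of 2.4e-05. 

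PSAT1, the aminotransferase of the middle step (ENSG00000135069, chromosome 9, 78297143 to 78330093, plus strand), was at 27.7, 29.7 and 31.4 CPM in control and 42.6, 50.9 and 43.1 CPM in exposed replicates 1 to 3. These groups did not overlap either, and exposed replicate 2 was the highest library. The rise was 0.62 ± 0.09 on the log2 scale (SE), or 1.54-fold (edgeR adjusted p = 1.8e-06).

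PSPH, the phosphatase that completes the synthesis (ENSG00000146733, chromosome 7, 56011051 to 56051604, minus strand), went the other way. It had 58.4, 67.3 and 66.6 CPM in control and 53.0, 54.8 and 42.6 CPM in exposed replicates 1 to 3. All exposed libraries lay below all control libraries, and exposed replicate 3 was the lowest. The log2 fold change was -0.36 ± 0.09 (SE; edgeR adjusted p = 0.0019), and the call ended without exposed replicate 3 (-0.23, adjusted p = 0.061). Within serine synthesis the first and middle enzymes thus rose and the last fell.

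**Figure D2:**
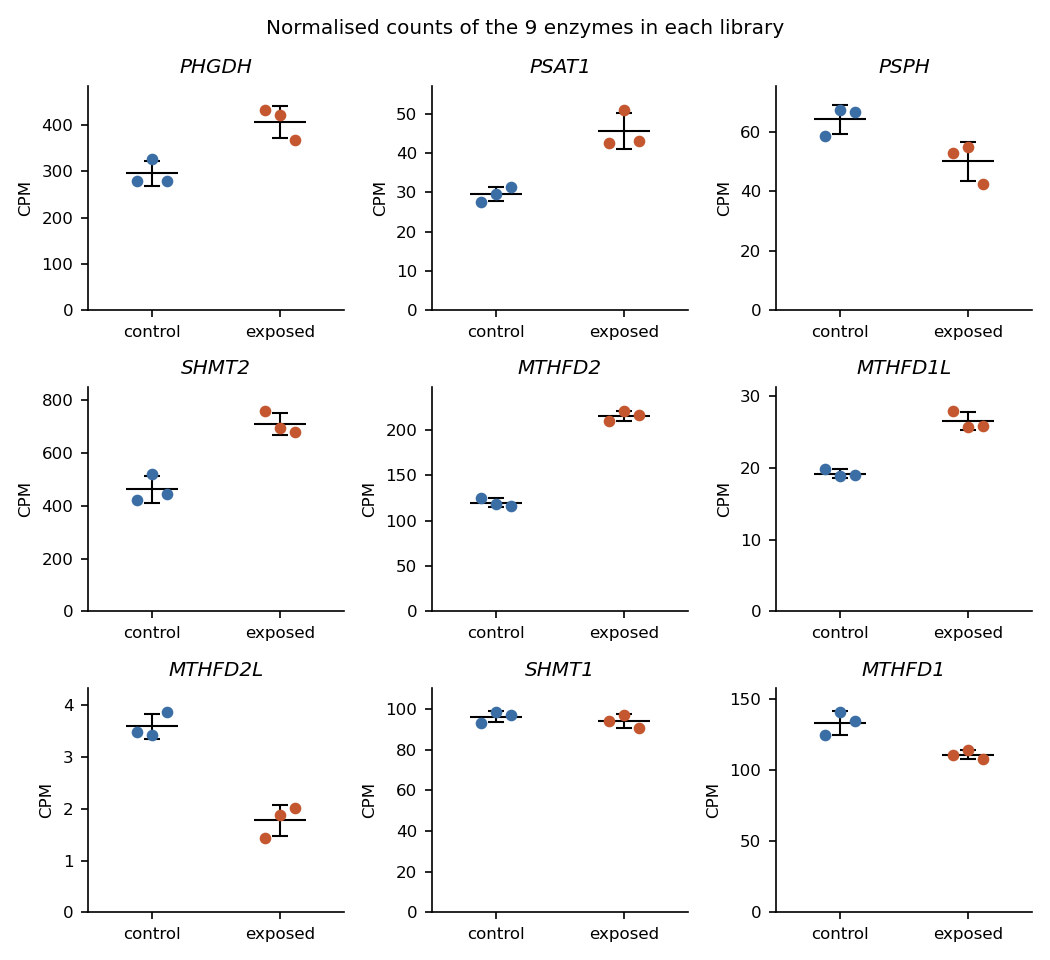
Normalised counts (CPM, vertical axes from 0, each with its own scale) of the 9 enzymes in the 3 control (blue) and 3 exposed (red) libraries, with the mean as a line and the SD as bars. The groups are apart in 8 panels, 5 with exposed libraries above and 3 with them below, and SHMT1 overlaps.

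Among the mitochondrial folate enzymes, SHMT2 (ENSG00000182199, chromosome 12, 57229327 to 57234935, plus strand) was the most abundant of the 9. It was counted at 423, 519 and 444 CPM in control and 759.9, 696 and 679 CPM in exposed replicates 1 to 3. Control replicate 2 was the highest control library, as it was for PHGDH, and still lay below every exposed library. The log2 fold change of SHMT2 was 0.62 ± 0.08 (SE), 1.54-fold (edgeR adjusted p = 2.5e-07).

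MTHFD2, the dehydrogenase and cyclohydrolase that follows SHMT2 (ENSG00000065911, chromosome 2, 74198562 to 74217565, plus strand), had the largest rise of the 9. Control replicates 1 to 3 had 125, 118 and 116 CPM, and exposed replicates 1 to 3 had 209.5, 220.4 and 216 CPM. The libraries of each group lay close together, with an SD of 4.93 and 5.50 CPM. The log2 fold change was 0.85 ± 0.07 (SE), 1.80-fold (edgeR adjusted p = 3.3e-11), and 94.0% of all tested genes had a lower one.

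MTHFD1L, the mitochondrial formyl-tetrahydrofolate synthetase (ENSG00000120254, chromosome 6, 150865549 to 151101887, plus strand), was at 19.9, 18.8 and 19.0 CPM in control and 27.9, 25.7 and 25.8 CPM in exposed replicates 1 to 3. The groups were again apart. Its log2 fold change of 0.46 ± 0.10 (SE; edgeR adjusted p = 2.2e-04) equalled that of PHGDH at this precision.

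MTHFD2L, which encodes a second mitochondrial dehydrogenase and cyclohydrolase (ENSG00000163738, chromosome 4, 74114174 to 74303099, plus strand), was scarce and fell. Its reads numbered 130, 119 and 141 in control and 49, 58 and 73 in exposed replicates 1 to 3, or 3.48, 3.43 and 3.87 against 1.44, 1.87 and 2.02 CPM. Every exposed library was below every control library. The log2 fold change was -1.01 ± 0.22 (SE), a 2.02-fold lower level (edgeR adjusted p = 2.9e-04), and with so few reads its SE was the widest of the 9. MTHFD2 and MTHFD2L, which catalyse the same reactions, thus moved in opposite directions.

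The cytosolic enzymes did not follow SHMT2, MTHFD2 and MTHFD1L. SHMT1 (ENSG00000176974, chromosome 17, 18327860 to 18363563, minus strand) had 93.1, 98.5 and 97.2 CPM in control and 94.3, 97.2 and 90.7 CPM in exposed replicates 1 to 3, and the groups overlapped. Its log2 fold change was -0.03 ± 0.07 (SE; edgeR adjusted p = 0.75). MTHFD1 (ENSG00000100714, chromosome 14, 64388031 to 64463457, plus strand) had 125, 141 and 135 CPM in control and 111, 114 and 108 CPM in exposed replicates 1 to 3. The groups of MTHFD1 did not overlap, and the log2 fold change was -0.26 ± 0.07 (SE; edgeR adjusted p = 0.0044). Groups that did not overlap were found for 8 of these 9 enzymes, 5 higher and 3 lower, and for 51.9% of all tested genes, 25.5% higher and 26.5% lower.

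Ratios of counts within a library do not depend on how libraries are scaled, so SHMT2, MTHFD2, MTHFD1L and MTHFD2L were also set against their cytosolic partners. For each read of SHMT1 there were 4.55, 5.27 and 4.57 reads of SHMT2 in the control libraries and 8.06, 7.16 and 7.49 in the exposed ones. MTHFD2 and MTHFD1 were about equal in control, at 1.01, 0.838 and 0.860 reads of MTHFD2 for each of MTHFD1, and at 1.89, 1.93 and 2.0 in exposed libraries. The log2 ratio differed by 0.66 for SHMT2 to SHMT1 (2.26 ± 0.121 in control, 2.92 ± 0.086 in exposed; SD, n = 3 per group) and by 1.11 for MTHFD2 to MTHFD1 (-0.16 ± 0.142 and 0.95 ± 0.0419). For MTHFD1L to MTHFD1 it was 0.73 higher, and for MTHFD2L to MTHFD1 it differed by -0.76. Each of the 4 ratios had groups that did not overlap, and a two-sided exact permutation p of 0.1 (0.1 also after Benjamini-Hochberg adjustment over the 4), the smallest that 3 libraries against 3 can give. The ratios reuse the counts given above for each enzyme, and all but SHMT2 to SHMT1 share MTHFD1 as denominator. They therefore restate those changes free of library scaling and are no separate support. How often ratios of other gene pairs part the groups was not tested.

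**Figure D3:**
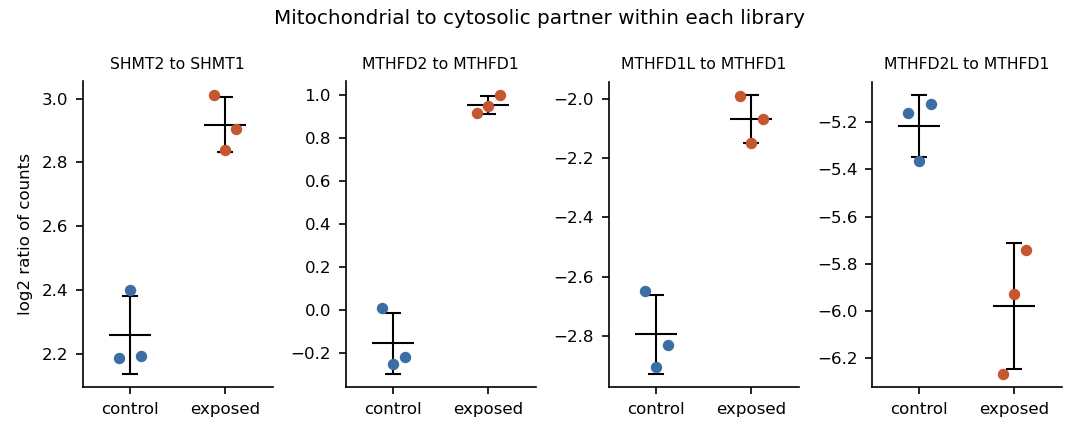
Log2 ratio of the counts of a mitochondrial enzyme to those of its cytosolic partner within each library (points), with group means and SD; each panel has its own scale and none starts at 0. The ratio is higher in all exposed libraries for SHMT2, MTHFD2 and MTHFD1L, and lower for MTHFD2L.

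To compare levels between genes, CPM were divided by the length of each gene's principal transcript in GENCODE 29. On this scale control libraries ordered the enzymes as SHMT2 (182 ± 19.9 CPM per kb, SD, n = 3), PHGDH (114 ± 10.5), MTHFD1 (42.6 ± 2.64), SHMT1 (39.1 ± 1.13), PSPH (29.4 ± 2.25), MTHFD2 (26.9 ± 1.11), PSAT1 (13.5 ± 0.854), MTHFD1L (5.33 ± 0.159) and MTHFD2L (1.56 ± 0.105). MTHFD1 and SHMT1 overlapped in that order, as did PSPH and MTHFD2, and the other neighbours were apart. In exposed libraries MTHFD2, at 48.3 ± 1.23 CPM per kb, stood above SHMT1 (38.2 ± 1.33), MTHFD1 (35.4 ± 0.957) and PSPH (23.0 ± 3.02), and PSAT1 (20.8 ± 2.11) overlapped PSPH. SHMT2 (280.5 ± 16.8) and PHGDH (157 ± 13.5) stayed on top, with MTHFD1L (7.35 ± 0.346) and MTHFD2L (0.774 ± 0.131) at the foot. The order depends on the length used: the lengths in the deposited table, which count every exon of every transcript, exceed the principal transcript 3.57 times for PHGDH, 2.99 times for MTHFD1 and 1.09 times for MTHFD2. With those lengths MTHFD2 (24.6 CPM per kb) was already above MTHFD1 (14.2) and SHMT1 (13.2) in control, and overlapped PSPH (23.2).

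**Figure D4:**
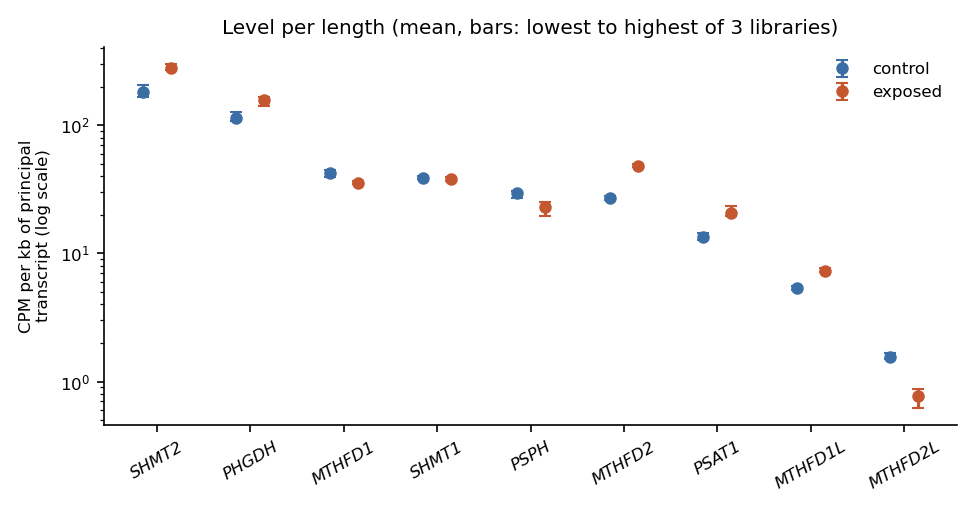
Level of each enzyme per kb of its principal transcript (vertical axis, log scale) in control (blue) and exposed (red) libraries; points are means and bars run from the lowest to the highest of 3 libraries. MTHFD2 passes SHMT1 and MTHFD1 between the groups. It overlaps PSPH in control and lies above PSPH in exposed libraries, and MTHFD2L is the lowest in both.

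Other genes of the folate, methionine and serine network were taken from 6 lists of 45 genes. Of the 41 that could be tested 10 rose and 15 fell by the same edgeR test, or 61.0% against 43.9% of all tested genes, with a median log2 fold change of -0.05. The share was 48.5% over tested protein-coding genes and 55.2% over genes averaging 10 CPM or more. The test against a 1.5-fold change left 3 of them, all lower, among them GLDC and MAT2A, beside 8.64% of all tested genes. Each value named below is a log2 fold change with its SE, by edgeR's quasi-likelihood test.

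The glycine cleavage system, which takes a further carbon from glycine in mitochondria, had 2 of 3 tested genes lower. GLDC, its decarboxylase, went from 6.95 ± 0.0789 to 3.01 ± 0.338 CPM (n = 3 per group), at -1.20 ± 0.17. DLD, a dehydrogenase shared with other complexes, was at -0.22 ± 0.09, a call kept under 4 of 14 alternative settings. The call was lost on leaving out any library but control replicate 2 (edgeR adjusted p from 0.067 to 0.17). On the other strand DLD overlaps LAMB1, which had 1448 to 2011 reads in control and 1163 to 1220 in exposed libraries.

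Of 7 tested genes of folate uptake, retention and carriers 3 fell, 1 rose and 3 did not pass, with a median log2 fold change of -0.05. Over all tested genes 21.8% were higher and 22.1% lower by the same test. The 3 that fell all bring folate into the cell, and none of them passed the test against a 1.5-fold change. The transporter SLC46A1 was at -0.73 ± 0.13, the folate receptor FOLR1 at -0.60 ± 0.10 and the reduced folate carrier SLC19A1 at -0.51 ± 0.10. FPGS, which adds the glutamate tail that keeps folate in the cell, rose by 0.39 ± 0.09. SFXN1, a mitochondrial serine carrier, was at -0.05 ± 0.08 and did not pass.

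Among 11 users and recyclers of folate cofactors 4 fell and 3 rose. TYMS, thymidylate synthase, was at -0.44 ± 0.15, a call that ended without control replicate 3 (edgeR adjusted p = 0.059) or exposed replicate 2 (0.058). On the other strand TYMS overlaps ENOSF1, which had 693 to 821 reads in control and 760 to 872 in exposed libraries. It also overlaps TYMSOS there, which had 97 to 149 reads in control and 33 to 39 in exposed libraries. GART, a purine enzyme that uses formyl-tetrahydrofolate, was at -0.28 ± 0.07. ALDH1L2, the mitochondrial formyl-tetrahydrofolate dehydrogenase, rose by 0.63 ± 0.10. Another rise, that of ALDH1L1, was between 0.151 ± 0.144 and 0.560 ± 0.299 CPM (n = 3 per group), and its groups overlapped. Its call ended without control replicate 1, control replicate 3 or exposed replicate 2 (edgeR adjusted p from 0.082 to 0.12). GART and ALDH1L1 were named after their values were seen.

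In the methionine cycle 4 of 8 tested genes fell and 2 rose. MAT2A, which makes the methyl donor S-adenosylmethionine, was at -1.18 ± 0.08, from 141 ± 7.02 to 62.3 ± 1.46 CPM (n = 3 per group). It overlaps GGCX on the other strand (1871 to 2298 reads in control and 1719 to 1870 in exposed libraries). Methionine synthase, MTR, was at -0.35 ± 0.09. GNMT was at -0.43 ± 0.15, a call that ended without control replicate 2 (-0.28, edgeR adjusted p = 0.16), exposed replicate 2 (-0.37, 0.067) or exposed replicate 3 (-0.34, 0.11), and under DESeq2 (adjusted p = 0.061). On the other strand GNMT overlaps PEX6, which had 10590 to 11087 reads in control and 7981 to 8849 in exposed libraries. GNMT itself had 188 to 368 reads. AHCYL1 and AHCYL2, relatives of the enzyme that clears S-adenosylhomocysteine, rose by 0.68 ± 0.08 and 0.38 ± 0.12, the second without a call when exposed replicate 3 was left out (0.30, edgeR adjusted p = 0.065). The transsulfuration enzymes CBS and CTH, which pass homocysteine sulfur to cysteine with a serine, were at 0.71 ± 0.33 and 0.41 ± 0.21 and did not pass (edgeR adjusted p = 0.15 and 0.10). The value of CBS rested on exposed replicate 1: control replicates had 10.2, 13.1 and 11.3 CPM and exposed replicates 28.0, 14.0 and 14.7 CPM, and without that library the log2 fold change was 0.32 (edgeR adjusted p = 0.052). CBS was called with no low-count filter (edgeR adjusted p = 0.0042), by limma-voom (0.0062) and without exposed replicate 2 (0.049), and CTH without control replicate 2 (0.56, 0.048).

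Of 10 genes of serine transport and other serine use, 4 rose and 2 fell. SDSL, a serine dehydratase-like enzyme, rose by 0.60 ± 0.09, the serine racemase SRR by 0.54 ± 0.15 and the neutral amino acid transporter SLC1A4 by 0.41 ± 0.08. On the other strand SRR overlaps TSR1, which had 2081 to 2210 reads in control and 1458 to 1966 in exposed libraries. SPTLC2 and SPTLC3, subunits of the enzyme that joins serine to fatty acids, were at -0.27 ± 0.08 and -0.37 ± 0.13. The call of SPTLC3 ended without control replicate 1 (-0.29), control replicate 3 (-0.39), exposed replicate 1 (-0.25) or exposed replicate 3 (-0.34; edgeR adjusted p from 0.052 to 0.17), and under DESeq2 (adjusted p = 0.062).

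**Figure D5:**
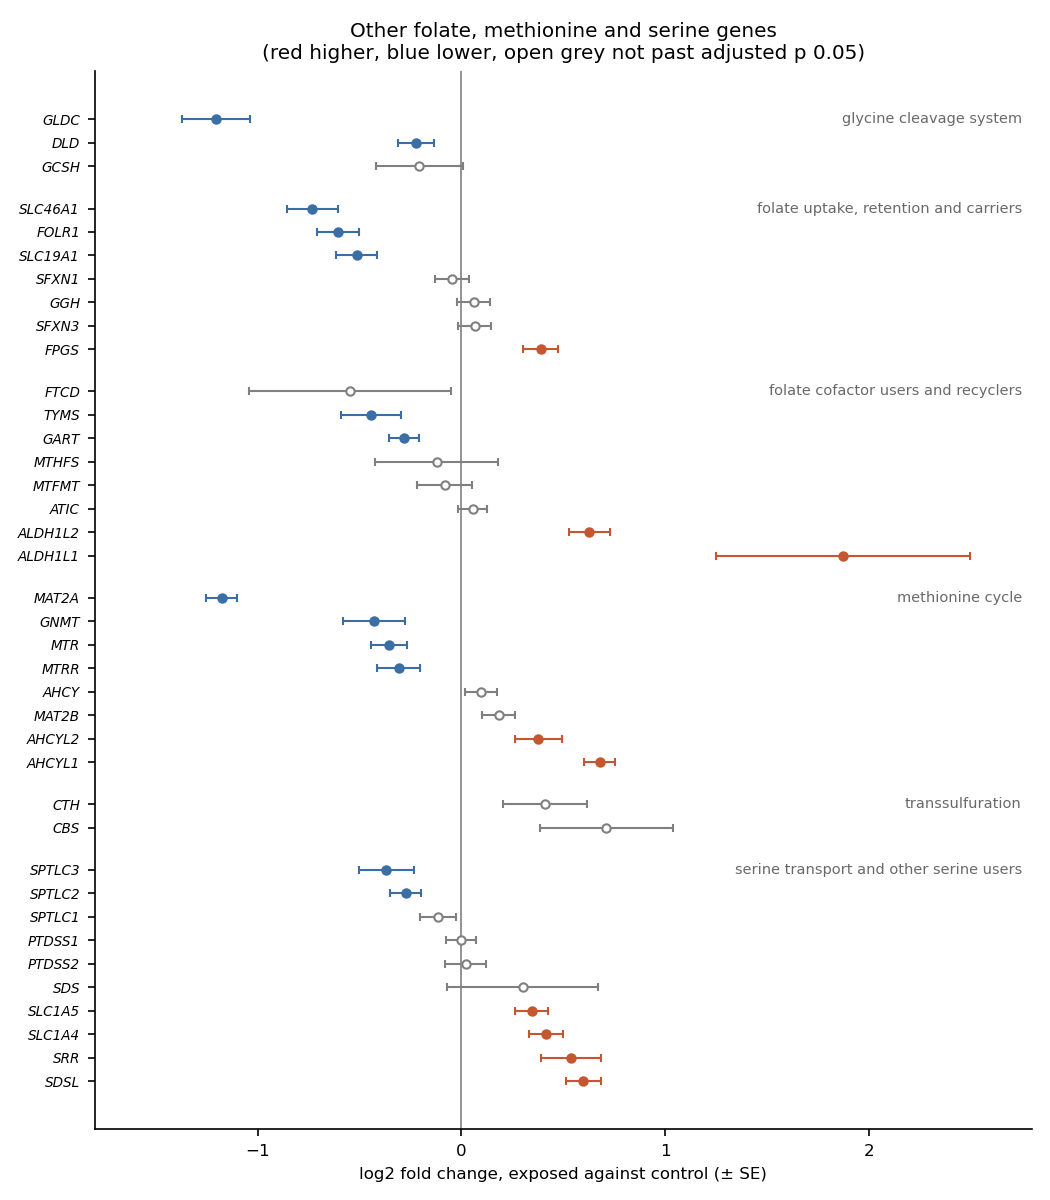
Log2 fold change, exposed against control, with its SE for 38 of the 41 tested genes of the 6 further lists, ordered by value within a list. GLDC and MAT2A lie furthest to the left, and ALDH1L1, counted at under 1 CPM, has the widest bar among the genes that passed.

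Known regulators of the pathway were counted beside it. ATF4 went from 263 ± 24.9 to 592 ± 23.3 CPM and the antioxidant factor NFE2L2 from 27.3 ± 2.82 to 45.9 ± 3.38 CPM, while MYC, known to drive serine and folate genes in proliferating cells, went from 40.7 ± 3.06 to 9.18 ± 1.83 CPM (n = 3 per group). The log2 fold changes were 1.17 ± 0.08, 0.75 ± 0.09 and -2.15 ± 0.12 (SE), and all 3 passed edgeR's test. Whether any of them acts on the enzymes in these cells was not tested. The genes whose profile over the 6 libraries was nearest to that of PHGDH, among 9341 that averaged 10 CPM or more, were IRF2BP1, GATA5 and C7orf26, with a root mean square difference in centred log2 CPM of 0.026, 0.0275 and 0.0284. Nearest to SHMT2 were B3GAT3 (0.0166), CEBPD (0.0265) and HAGH (0.0279).

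Since PHGDH, PSAT1, MTHFD2 and MTHFD1L rose together, their promoters were read from RefSeq sequence (GRCh38.p14), where 7 of the 9 enzymes have a window of 250 bases before to 50 after a start site. SHMT2, which also rose, and PSPH, which fell, have no window. Searched on both strands were TGATGNAA, the composite element read by ATF4 with C/EBP partners, the E-box CACGTG, the AhR core GCGTG, the antioxidant element TGACNNNGC and, chosen after the sequences were seen, CCAAT. TGATGNAA is in 3.62% of all 35116 windows and, of these enzymes, in those of MTHFD1L alone. CACGTG is in 7.26% of all windows and in those of MTHFD1 and MTHFD1L. In MTHFD1L it lies 154 bases, and TGATGCAA 129 bases, before the most downstream of the 3 RefSeq starts that share this stretch. Relative to the most upstream of them CACGTG begins 1 base before the start and TGATGCAA 24 bases after it. GCGTG is in 36.5%, with MTHFD1L, MTHFD2, MTHFD2L and PSAT1, and TGACNNNGC in 13.3%, with MTHFD2 and MTHFD2L. CCAAT is in 34.6%, with PHGDH, PSAT1, MTHFD2, MTHFD1L, MTHFD1 and SHMT1. The percentages count windows, while an enzyme is named for a match in any of its own. The 7 enzymes have 11 windows, and the 3 of MTHFD1L overlap and repeat the same matches. By window CCAAT is in 8 of the 11, GCGTG in 6, CACGTG in 4, TGATGNAA in 3 and TGACNNNGC in 2. A match is no evidence of binding.

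The sequences below show some of these elements, TGACNNNGC not among them. First come 4 promoters of enzymes that rose, then MTHFD1, which fell, and SHMT1, which did not pass. No stretch of MTHFD2L, which fell, is printed. The sequences run 5′ to 3′ on the strand of the gene, with matches in capitals. Among these are CACGC and ATTGG, as GCGTG and CCAAT on the other strand. Shown are 30 bases around a match, or for PSAT1 and SHMT1 100 bases upstream of the start that lie in no exon. They lie at chr6:150866346-150866375 and chr6:150866320-150866349 (MTHFD1L, plus strand), chr2:74198580-74198609 (MTHFD2, plus), chr1:119711851-119711880 (PHGDH, plus), chr9:78297025-78297124 (PSAT1, plus), chr14:64388326-64388355 (MTHFD1, plus) and chr17:18363564-18363663 (SHMT1, minus).
MTHFD1L, composite element: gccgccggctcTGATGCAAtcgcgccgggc
MTHFD1L, E-box: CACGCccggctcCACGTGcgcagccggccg
MTHFD2: cgcagtataaccGCGTGgcccgcgcgcgcg
PHGDH: gagtatttccgtCCAATcaaaaggagactg
PSAT1: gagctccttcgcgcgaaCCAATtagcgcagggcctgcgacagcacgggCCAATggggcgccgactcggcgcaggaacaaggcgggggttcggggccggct
MTHFD1: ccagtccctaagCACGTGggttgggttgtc
SHMT1: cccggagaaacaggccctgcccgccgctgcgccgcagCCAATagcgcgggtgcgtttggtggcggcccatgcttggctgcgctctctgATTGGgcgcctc
PSAT1, which rose, and SHMT1, which did not pass, both hold a CCAAT match and are GC-rich, each 71.0% over the bases shown.

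Reads could be shared with other genes at some of these loci, and not every overlap of the further genes is named. SHMT1 overlaps SMCR8 on the other strand, a gene with 4285 to 5072 reads in control and 5739 to 6329 in exposed libraries, and MTHFD1 overlaps ZBTB25 (712 to 878 and 820 to 1011 reads). SHMT2 overlaps NDUFA4L2, which had at most 143 reads. With no strand setting in the sources used here, reads over such stretches cannot be told apart. Of 14 pseudogenes named for these enzymes 11 had no read in any library, and the most any had in a library was 11, for MTHFD2P7.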

How the data were processed

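The authors deposited raw read counts per gene in 6 libraries, with GRCh38 as the build named in the submitters' processing notes, from total RNA extracted with TRIzol and NEBNext Ultra libraries sequenced on an Illumina NovaSeq instrument per the labels' protocols. It also gives a gene length in bases, which for the 9 enzymes equals the union of their GENCODE 29 exons. The sources used here give no aligner, counter or strand setting. All 58735 gene IDs had the same coordinates and strand in GENCODE 29.

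Titles gave each sample's group and number. In R 4.3.3, edgeR 4.0.16 kept 17337 genes (filterByExpr, minimum count 10, minimum total 15), scaled by TMM and fitted a robust quasi-likelihood model over the whole table, with Benjamini-Hochberg adjustment and a threshold of 0.05. SE is the size of the log2 fold change divided by the square root of F. Alternatives were DESeq2-type size factors, removal of mitochondrial genes, no filter, at least 50 counts in 3 libraries, DESeq2 1.42.0, limma-voom (limma 3.58.1), a minimum change of 1.5-fold, the replicate number as a block, and leaving out each library.

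The members and lists were chosen with earlier results of these data known. Named are the 9 enzymes, up to 3 rises and 3 falls of each further list by size at a mean of at least 1 CPM, ATF4, MYC, NFE2L2 and CYP1A1, and 3 genes nearest in profile to PHGDH and SHMT2. CBS, CTH, SFXN1, GART and ALDH1L1 were added by hand, outside that rule. Some genes of the further lists are counted there but not reported here by name.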

Additional observations from a re-analysis of the deposited data

How the results depend on the processing

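The directions and calls of the 9 enzymes held under DESeq2-type size factors, removal of mitochondrial genes, both other low-count filters, DESeq2 and limma-voom, with 5 called higher and 3 lower in each. SHMT1 was not called under any setting, and its log2 fold change ran from -0.05 to 0.01. Against a 1.5-fold change only MTHFD2 was called, so 1 enzyme was higher and 0 were lower (against any change: 5 and 3), and of the further genes 0 were higher and 3 lower (against 10 and 15), while over all genes 1498 were called (8.64%, against 7610 or 43.9%). The log2 fold changes then left without a call were 0.46 for PHGDH, 0.62 for PSAT1, -0.36 for PSPH, 0.62 for SHMT2, 0.46 for MTHFD1L, -1.01 for MTHFD2L and -0.26 for MTHFD1, with edgeR adjusted p from 0.077 to 1. With 1 library left out, PSPH ran from -0.42 to -0.23 and lost its call without exposed replicate 3, and no other call among the 9 was lost. Same-numbered libraries did not deviate together (r across genes -0.074, -0.0804 and 0.00546). Such values cannot tell whether these libraries shared a culture or batch with a small effect. With the replicate number as a block all 8 calls remained, at -0.36 for PSPH and 0.85 for MTHFD2, and the count over all genes went from 7610 to 6779. The low count of MTHFD2L, 49 to 141 reads, limits its precision. A 0.5 pseudocount or leaving out a library reversed none of the 4 ratios.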
